A study of Rattus norvegicus with 8 samples.

Results

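The proteasome genes were taken as every gene whose symbol is Psma, Psmb, Psmc, Psmd, Psme, Psmf or Psmg followed by a number and nothing else. On the arrays, 44 of 14506 genes met this rule. They were 13 subunits of the core particle, 17 subunits of the regulatory cap, 5 genes of the immunoproteasome, 6 assembly chaperones, 2 further activators and 1 tissue-restricted core subunit. Psma3, Psma8, Psmf1 and Psmg3 had no probe set assigned to them alone and were not analysed here.

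RNA came from pancreatic islets of Sprague-Dawley rat fetuses at embryonic day 19. Dams had undergone sham surgery or surgery for intrauterine growth restriction (IUGR) on embryonic day 18, 1 day earlier. The islets of a whole litter were pooled for 1 array, with 4 sham litters and 4 IUGR litters from 8 dams, so the replicate was the litter. The labels name no transgene, drug or sort, and pooling means that differences between pups of a litter cannot be seen. The insulin genes Ins1 and Ins2, which define beta cells, lay between 13.15 and 14.24 (log2) in all litters, while acinar, liver, blood, endothelial and mesenchymal genes were also read in the same RNA.

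The proteasome is the protease complex that degrades proteins tagged with ubiquitin. Its core is a barrel of alpha and beta rings in which 3 beta subunits cut peptide bonds. A regulatory cap of ATPases and non-ATPase subunits recognises, unfolds and feeds in the substrate. In immune cells, and in other cells exposed to interferon, the catalytic subunits Psmb5, Psmb6 and Psmb7 are replaced by Psmb8, Psmb9 and Psmb10, and the ring activator made of Psme1 and Psme2 can sit on the core. Islet endocrine cells make large amounts of secretory protein, and misfolded hormone precursors are returned to the cytosol for degradation by this complex.

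Promoters of the catalytic subunits are shown because the constitutive and inducible genes are compared throughout. RefSeq promoters (rat assembly GRCr8) were matched by symbol for 39 of the 44 genes. The 250 bases before the annotated start are shown for the 3 pairs of constitutive and inducible subunits and for Psme2. Capitals mark matches on either strand to TGACNNNGC (antioxidant response element), to the box CCAAT, to the ETS core written as CGGAAG, to the interferon response element (a pair of GAAA runs with 2 bases of any kind between them) or to TTCNNNGAA (interferon-gamma activated site). No marked matches overlapped.
Psmb5, chr15:32047380-32047629, minus strand: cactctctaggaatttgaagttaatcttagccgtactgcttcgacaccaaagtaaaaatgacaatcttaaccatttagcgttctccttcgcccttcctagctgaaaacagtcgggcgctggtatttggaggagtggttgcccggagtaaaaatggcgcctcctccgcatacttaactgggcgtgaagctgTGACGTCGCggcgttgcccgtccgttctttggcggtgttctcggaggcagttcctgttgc
Psmb8, chr20:4657032-4657281, minus strand: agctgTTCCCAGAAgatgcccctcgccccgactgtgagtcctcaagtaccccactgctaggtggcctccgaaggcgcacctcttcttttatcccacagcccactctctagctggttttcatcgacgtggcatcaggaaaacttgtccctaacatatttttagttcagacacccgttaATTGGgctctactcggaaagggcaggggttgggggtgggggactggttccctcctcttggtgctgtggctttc
Psmb6, chr10:55737638-55737887, plus strand: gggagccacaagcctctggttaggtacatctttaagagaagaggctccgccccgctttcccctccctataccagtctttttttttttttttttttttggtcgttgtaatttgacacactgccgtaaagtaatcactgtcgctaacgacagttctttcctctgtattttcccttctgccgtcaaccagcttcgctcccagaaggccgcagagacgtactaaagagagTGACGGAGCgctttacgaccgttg
Psmb9, chr20:4668750-4668999, plus strand: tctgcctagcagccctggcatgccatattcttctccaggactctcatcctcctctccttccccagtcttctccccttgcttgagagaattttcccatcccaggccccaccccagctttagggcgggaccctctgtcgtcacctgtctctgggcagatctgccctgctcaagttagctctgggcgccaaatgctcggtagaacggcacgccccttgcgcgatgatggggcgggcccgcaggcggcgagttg
Psmb7, chr3:42827471-42827720, minus strand: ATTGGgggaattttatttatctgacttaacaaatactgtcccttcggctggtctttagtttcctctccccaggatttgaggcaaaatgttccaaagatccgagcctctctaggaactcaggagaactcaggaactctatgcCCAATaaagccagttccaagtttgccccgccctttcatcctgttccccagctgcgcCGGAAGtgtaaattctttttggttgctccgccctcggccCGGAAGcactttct
Psmb10, chr19:50743293-50743542, minus strand: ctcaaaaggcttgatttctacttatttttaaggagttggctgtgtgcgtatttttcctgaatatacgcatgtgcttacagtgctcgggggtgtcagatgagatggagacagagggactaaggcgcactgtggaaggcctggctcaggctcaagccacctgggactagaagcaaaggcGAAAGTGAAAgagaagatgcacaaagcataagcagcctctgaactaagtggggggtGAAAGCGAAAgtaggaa
Psme2, chr15:33052752-33053001, minus strand: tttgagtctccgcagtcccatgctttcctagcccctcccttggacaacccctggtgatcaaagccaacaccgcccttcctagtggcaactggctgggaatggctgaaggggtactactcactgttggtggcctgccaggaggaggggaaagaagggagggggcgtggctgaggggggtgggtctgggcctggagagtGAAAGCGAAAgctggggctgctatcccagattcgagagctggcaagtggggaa

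Psmb5 and Psmb6 each held an antioxidant response element, spanning bases 60 to 52 and 24 to 16 before the start. Psmb7 had 2 ETS cores, beginning 53 and 14 bases before the start, and 2 CCAAT boxes. Psmb10 had 2 interferon response elements, beginning 73 and 17 bases before the start, and Psme2 had 1, beginning at base 53. Psmb8 held a CCAAT box and an interferon-gamma activated site, and Psmb9 had none of these 5 patterns in the window. Over the 39 member promoters, the ETS core was present in 17 (43.6%), against 13.9% of 33469 RefSeq promoters. It stood in 7 of 12 core, 8 of 14 cap and 0 of 5 immunoproteasome promoters. CCAAT was in 17 member promoters (43.6%, against 34.0% of all). The antioxidant response element was in 6 (15.4% against 10.1%). The interferon response element was in 5 (12.8% against 3.41%), in 2 of 12 core, 1 of 14 cap and 2 of 5 immunoproteasome promoters. The interferon-gamma activated site was in 4 (10.3% against 7.67%), in 0 of 12 core, 3 of 14 cap and 1 of 5 immunoproteasome promoters. A pair of further patterns was searched, the simplified kappa B pattern (GGG, any 5 bases, CC, in 59.0% against 42.3%) and the TFAP2 palindrome (GCC, any 4 bases, GGC, in 10.3% against 11.1%). A match describes the letters in these windows and does not show that a factor binds there.

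The sham litter of replicate 4 stood apart before any group comparison. Its mean over 11 endocrine markers was 12.47 (log2). The remaining sham litters had 11.02 to 11.10 and the IUGR litters 11.48 to 11.95. Its mean over 10 acinar markers was 9.36, where the remaining sham litters had 10.31 to 11.06 and the IUGR litters 11.25 to 12.12. The mean of 11 liver markers was also 9.36 there, against 11.70, 9.80 and 11.19 in sham replicates 1 to 3 and 11.57 to 12.88 in the IUGR litters. In the liver list sham replicate 2 was thus low as well. The table used carries no detection call, so no marker could be called absent. In pooled tissue, fewer cells of a type and less RNA per cell cannot be told apart.

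No proteasome gene differed between IUGR and sham islets past the threshold. Of the 44 genes, 0 had an adjusted p under 0.05 (limma, adjusted over all genes), where 0.248% of all genes did. At an unadjusted p under 0.05 the count was 0 of 44, against 26.1% of all genes. In 0 of 44 did the 4 IUGR litters lie wholly above or below the 4 sham litters, against 15.5% of all genes. The lowest adjusted p was 0.195, for Psmd8, and the highest 0.991, for Psme4. Differences ran from -0.34 (Psmb9) to 0.46 (Psmd10) on the log2 scale. Their 95% intervals had a median half-width of 0.35, which is the precision that 4 litters a group gave for a typical member.

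The sign of the differences depended on sham replicate 4. With all litters, 36 of 44 members were higher in IUGR islets, where 55.1% of all genes were higher, and the median difference was 0.12 against 0.04 over all genes. Without that litter, 20 of 44 were higher (52.0% of all genes), with a median of -0.028 against 0.013, and 0 of 44 had an unadjusted p under 0.05 (25.5% of all genes, limma). After quantile normalization 24 were higher (57.1% of all genes), after cyclic loess 23 (51.8%) and after median centring 9 (28.1%). Median centring moved the median of all genes from 0.04 to -0.19, and that of the members to -0.11.

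**Figure D1:**
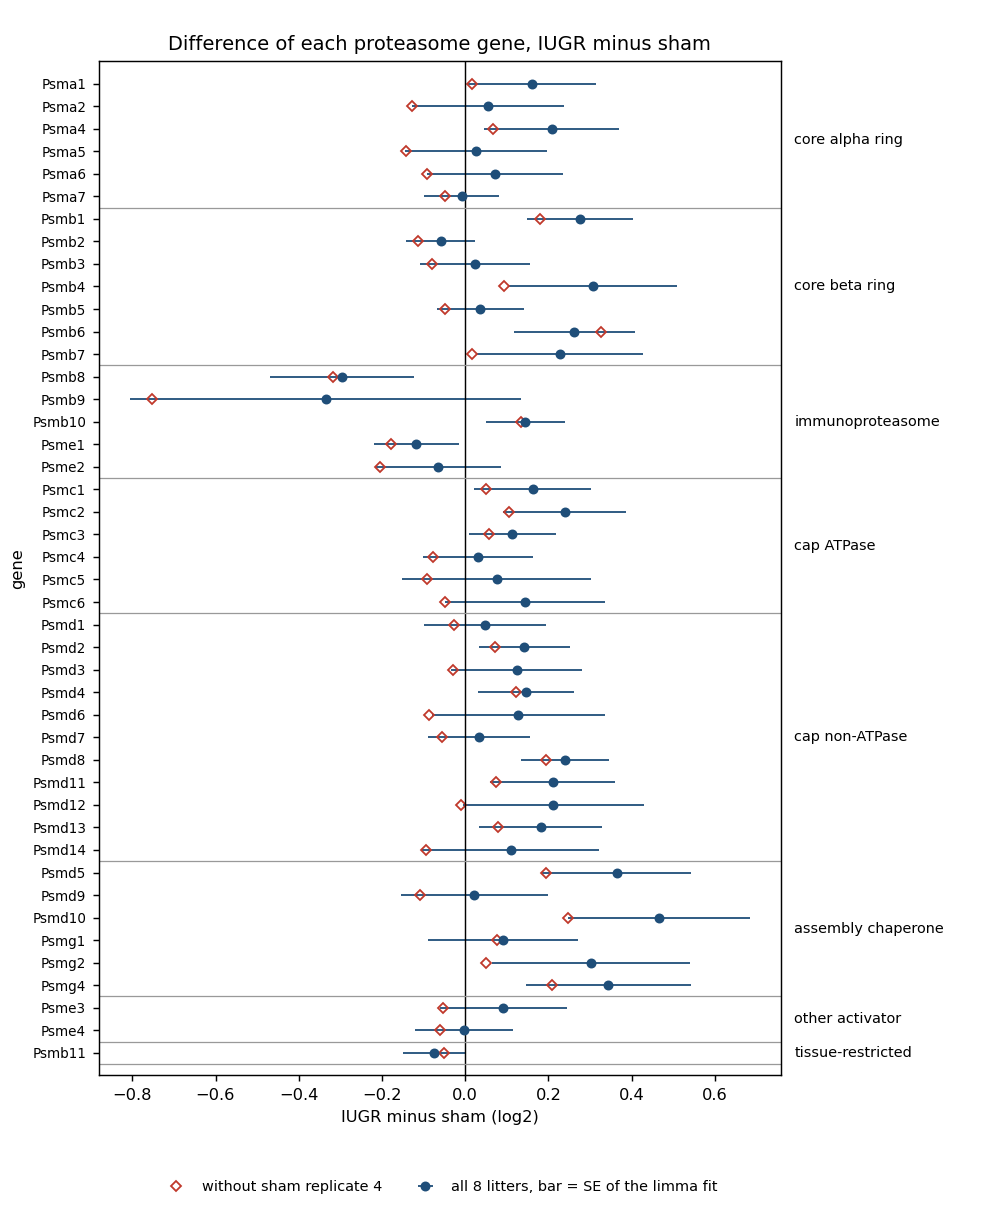
Difference of each of the 44 proteasome genes, IUGR minus sham in log2 units on the x axis, grouped by role on the y axis. Blue points are the fit to all 8 litters with its standard error, and open diamonds the fit without sham replicate 4. Blue points lie right of 0 for 36 genes and open diamonds for 20.

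In the core particle, 11 of 13 subunits were higher in IUGR islets with all litters and 6 of 13 without sham replicate 4. The median difference was 0.07 and -0.049 in those fits. The alpha ring gates the entry to the barrel. Its measured subunits Psma1, Psma2, Psma4, Psma5, Psma6 and Psma7 differed by between -0.0086 (Psma7) and 0.21 (Psma4). Psma4 had log2 values of 10.77, 10.80, 10.84 and 10.24 in sham replicates 1 to 4. In IUGR replicates 1 to 4 it had 10.70, 11.03, 10.70 and 11.05. Sham replicate 4 was the low sample, and the other sham litters lay among the IUGR litters. The difference of Psma4 was 0.21 ± 0.16 (SE, n = 4 litters per group, adjusted p = 0.424, limma). Psma7 read 10.32, 10.49, 10.41 and 10.24 in the sham litters and 10.23, 10.37, 10.35 and 10.48 in the IUGR litters. It was the alpha subunit with the smallest gap in sham replicate 4, at a difference of -0.16 from the mean of the other sham litters, where Psma2 stood at -0.73.

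The beta ring holds the proteolytic sites. Psmb5, the chymotrypsin-like subunit, read 12.85, 12.82, 12.70 and 12.45 in the sham and 12.68, 12.83, 12.71 and 12.75 in the IUGR litters. Apart from sham replicate 4, all litters lay within the range of 12.68 to 12.85. Psmb7, the trypsin-like subunit, read 12.07, 12.26, 12.22 and 11.34 in the sham and 12.10, 12.28, 12.15 and 12.27 in the IUGR litters. Again 1 sham litter was low and the rest overlapped. Psmb6, the caspase-like subunit, went another way. It read 10.50, 10.81, 10.85 and 10.97 in the sham and 10.81, 11.15, 10.91 and 11.32 in the IUGR litters, so that sham replicate 4 was the highest sham litter. A second probe set of Psmb6 read 10.59 in sham replicate 4 and 10.19 to 10.39 in the other sham litters, the same order. Psmb6 differed by 0.26 ± 0.15 (SE, adjusted p = 0.279, limma), and by 0.33 without sham replicate 4.

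Among the other beta subunits, which are structural, Psmb4 had the highest difference of the core. Its values were 11.57, 11.71, 11.65 and 10.79 in the sham litters and 11.57, 11.80, 11.73 and 11.84 in the IUGR litters. The difference was 0.31 ± 0.20 (SE, adjusted p = 0.350, limma) with all litters and 0.093 without sham replicate 4. Psmb2 had the lowest difference of the core, -0.059 ± 0.084 (SE). It read 13.01, 13.01, 12.93 and 12.77 in the sham litters against 12.83, 12.89, 12.82 and 12.93 in the IUGR litters, with overlap. Psmb1 differed by 0.28 ± 0.13 (SE, adjusted p = 0.209, limma) and Psmb3 by 0.023.

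All 17 measured cap subunits had a difference above 0 with all litters, from 0.03 to 0.24, and 8 of 17 did without sham replicate 4. The median was 0.14 and -0.0089 in those fits, and after median centring 2 of 17 were above 0 with a median of -0.089. The 6 ATPases (Psmc1 to Psmc6) form the ring that unfolds substrates. Psmc2 had the highest difference among them, 0.24 ± 0.15 (SE, adjusted p = 0.324, limma). It read 11.85, 11.89, 11.77 and 11.30 in the sham litters and 11.74, 12.05, 11.90 and 12.06 in the IUGR litters. Psmc4 had the lowest, 0.031, and read 12.10, 12.09, 12.07 and 11.65 against 11.84, 12.11, 11.90 and 12.18. In both genes sham replicate 4 was the lowest of the 8 arrays and the groups overlapped.

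The 11 non-ATPase cap subunits include the scaffold Psmd2, the ubiquitin receptor Psmd4 and the deubiquitinase Psmd14. Psmd8 had the lowest p of all members (unadjusted 0.0522 in limma, adjusted p = 0.195) with a difference of 0.24 ± 0.11 (SE). Its values were 11.11, 11.11, 10.84 and 10.84 in the sham litters and 11.08, 11.34, 11.15 and 11.28 in the IUGR litters. Here sham replicate 3 was as low as sham replicate 4, and IUGR replicate 1 lay below the higher sham litters. Psmd7, the inactive partner of Psmd14, had the lowest difference, 0.034 ± 0.12 (SE). It read 11.23, 11.19, 11.20 and 10.85 against 11.00, 11.32, 11.02 and 11.28. Psmd4 differed by 0.15, Psmd14 by 0.11 and Psmd2 by 0.14, and the remaining non-ATPase subunits by 0.047 (Psmd1) to 0.21 (Psmd12).

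The core and cap genes shared an order of litters. Sham replicate 4 was the lowest of the 8 arrays in 27 of 30 core and cap genes (90.0%), against 30.8% of all genes. Among all 44 members it was the lowest array in 35, and the lowest sham litter in 39 (38.3% of all genes). IUGR replicate 4 was the highest of the 8 arrays in 24 of 44 members (20.6% of all genes). The difference between sham replicate 4 and the mean of the other sham litters had a median of -0.50 in the core and cap genes and -0.03 over all genes. In the IUGR group, replicates 2 and 4 both lay above replicates 1 and 3 in 30 of 30 core and cap genes, against 19.6% of all genes. Both patterns were noticed in the values and then counted, so they are descriptions. The genes share arrays and are not independent of one another.

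These orders were weaker but present under other scalings. IUGR replicates 2 and 4 lay above 1 and 3 in 28 of 30 core and cap genes after quantile normalization (21.3% of all genes), 27 after cyclic loess (16.5%) and 29 after median centring (18.4%). Sham replicate 4 was lowest of the 8 in 20 after quantile normalization (31.6% of all genes), 17 after cyclic loess (29.1%) and 16 after median centring (19.7%). Its median gap to the other sham litters in core and cap genes was -0.31, -0.24 and -0.37 in those settings. Over all genes that gap was -0.052, -0.038 and 0.091. The interquartile range over genes was 3.06 in sham replicate 4, the narrowest of the 8 arrays (3.2 to 3.63 in the others). The part of array spread in the gap was not tested. Sham replicates 1 to 3 were close to each other, with a median range of 0.13 in the core and cap genes and 0.31 over all genes. The median SD of the sham group over the 44 members was 0.29 with sham replicate 4 and 0.086 without it, where all genes had 0.23 and 0.16.

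In none of the 9 marker lists did the means of IUGR replicates 2 and 4 both lie above those of 1 and 3. In IUGR replicates 1 to 4 the endocrine marker mean was 11.95, 11.64, 11.48 and 11.59, and the acinar mean was 11.67, 11.46, 11.25 and 12.12. The macrophage mean was 9.36, 10.40, 10.44 and 9.61 and the erythroid mean 10.68, 11.86, 11.94 and 11.27. In sham replicate 4, where core and cap genes were low, the endocrine list and the mesenchyme list (12.51, where the remaining sham litters had 11.85 to 12.02) were high. The acinar and liver means (9.36 each) were the lowest of the 8 arrays in sham replicate 4 and the highest in IUGR replicate 4 (12.12 and 12.88), as the core and cap means were. The liver mean in IUGR replicates 1 to 3 was 12.38, 11.57 and 12.47. The part of cell make-up in these litter differences was not tested.

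**Figure D2:**
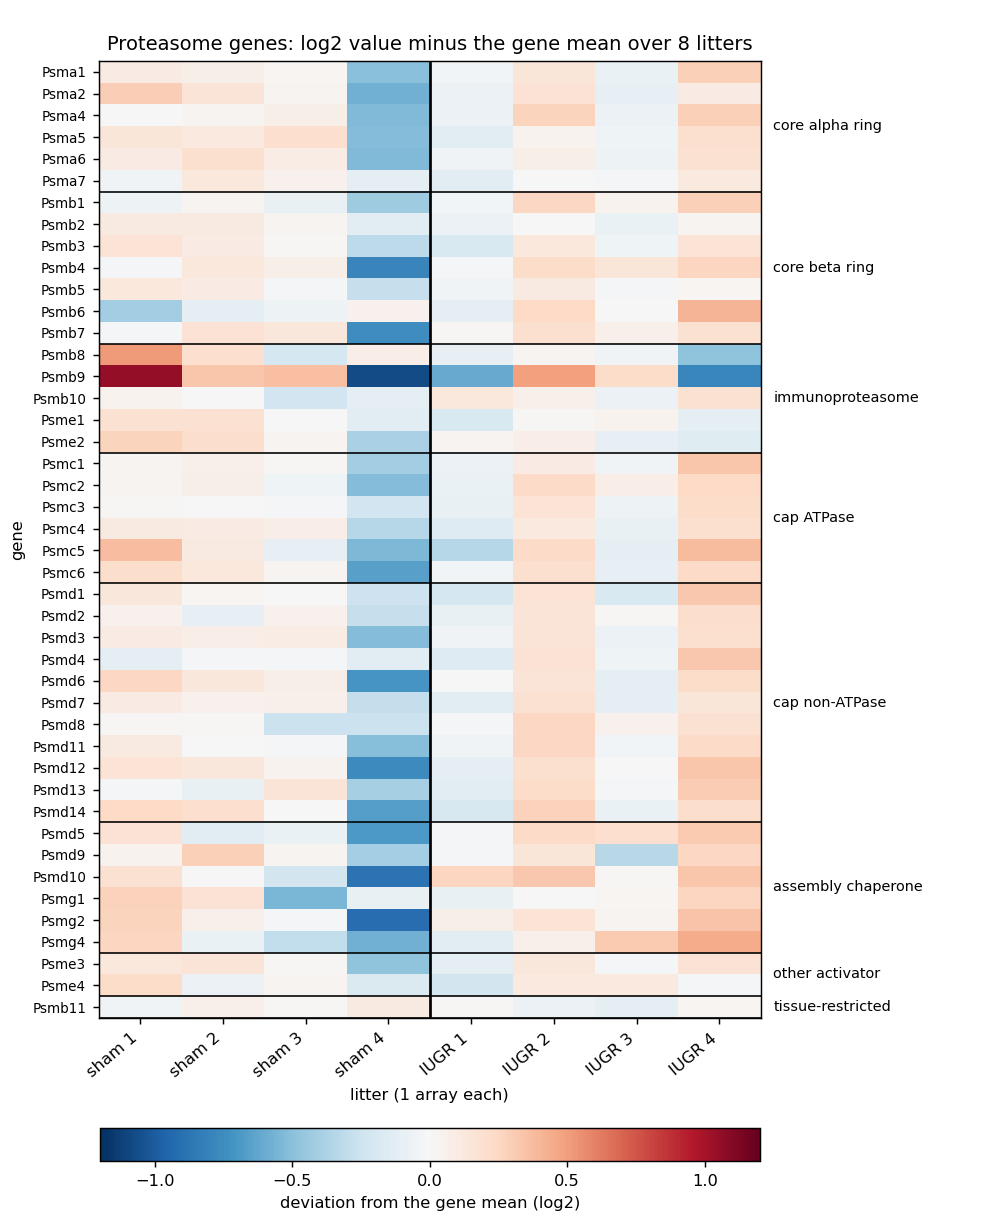
Heat map of the 44 proteasome genes (rows, by role) in 8 litters (columns), coloured by the log2 value minus the mean of the gene over all litters. The sham replicate 4 column is blue in most rows, being the lowest array in 35 genes, and IUGR replicates 2 and 4 are redder than 1 and 3 across core and cap.

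**Figure D3:**
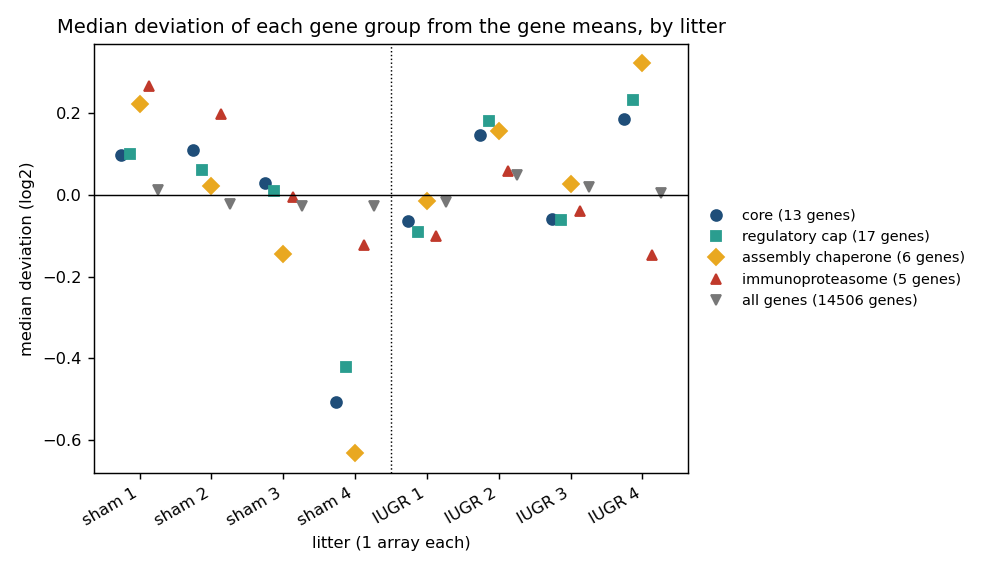
Median deviation from the gene means (log2, y axis) of each gene group in each litter (x axis). Core and cap lie at -0.51 and -0.42 in sham replicate 4 and above 0 in IUGR replicates 2 and 4, whereas the median over all genes stays between -0.03 and 0.05.

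Among the immunoproteasome genes, 1 of 5 was higher in IUGR islets with all litters, where 11 of 13 core and 17 of 17 cap genes were. Without sham replicate 4 the counts were 1 of 5, 6 of 13 and 8 of 17, and the median of each group was below 0. The median difference of the immunoproteasome genes was -0.12 with all litters, and none passed. It was -0.20 without sham replicate 4, -0.039 without sham replicate 1 and -0.048 with array weights. Quantile normalization gave a median of -0.20 (1 of 5 higher), cyclic loess -0.22 (0 of 5) and median centring -0.35 (0 of 5). In 0 of 5 did IUGR replicates 2 and 4 both lie above 1 and 3. Whether this group differed from the core or cap was not tested, and after median centring the medians of all 3 groups were below 0.

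Psmb8, which replaces Psmb5, read 8.40, 8.09, 7.68 and 7.97 in the sham litters and 7.79, 7.92, 7.85 and 7.40 in the IUGR litters. Sham replicate 1 was the highest and IUGR replicate 4 the lowest, and the groups overlapped. The difference was -0.30 ± 0.17 (SE, n = 4 each, adjusted p = 0.297, limma). Psmb8 values lay around the medians of the arrays over all probe sets (7.70 to 7.81), far below those of Psmb5. Psmb9, which replaces Psmb6, varied most of all members. It read 10.43, 9.71, 9.73 and 8.30 in the sham litters and 8.77, 9.87, 9.59 and 8.59 in the IUGR litters, with group means of 9.54 ± 0.90 and 9.21 ± 0.62 (SD, n = 4 each). The low arrays were sham replicate 4 and IUGR replicates 1 and 4. The difference was -0.34 ± 0.47 (SE, adjusted p = 0.659, limma), and without sham replicate 4 it was -0.75 (adjusted p = 0.220, limma). It was -0.039 without sham replicate 1, -0.19 without IUGR replicate 1, -0.13 without IUGR replicate 4 and -0.56 without IUGR replicate 2. Psmb10, which replaces Psmb7, was the 1 gene of the group with a difference above 0, at 0.14 ± 0.095 (SE, adjusted p = 0.349, limma). It read 9.23, 9.20, 8.96 and 9.08 against 9.32, 9.25, 9.12 and 9.37, and after cyclic loess its difference was -0.015.

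Psme1 and Psme2 encode the activator ring. Psme1 read 11.62, 11.62, 11.43 and 11.31 in the sham and 11.25, 11.45, 11.48 and 11.32 in the IUGR litters, a difference of -0.12 ± 0.10 (SE, adjusted p = 0.472, limma). Psme2 read 12.83, 12.78, 12.60 and 12.18 against 12.60, 12.65, 12.47 and 12.42, a difference of -0.064 ± 0.15 (SE, adjusted p = 0.800, limma). Sham replicate 4 was the lowest array for Psme2, and without it the difference was -0.20 (adjusted p = 0.221, limma). Both genes overlapped between groups.

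**Figure D4:**
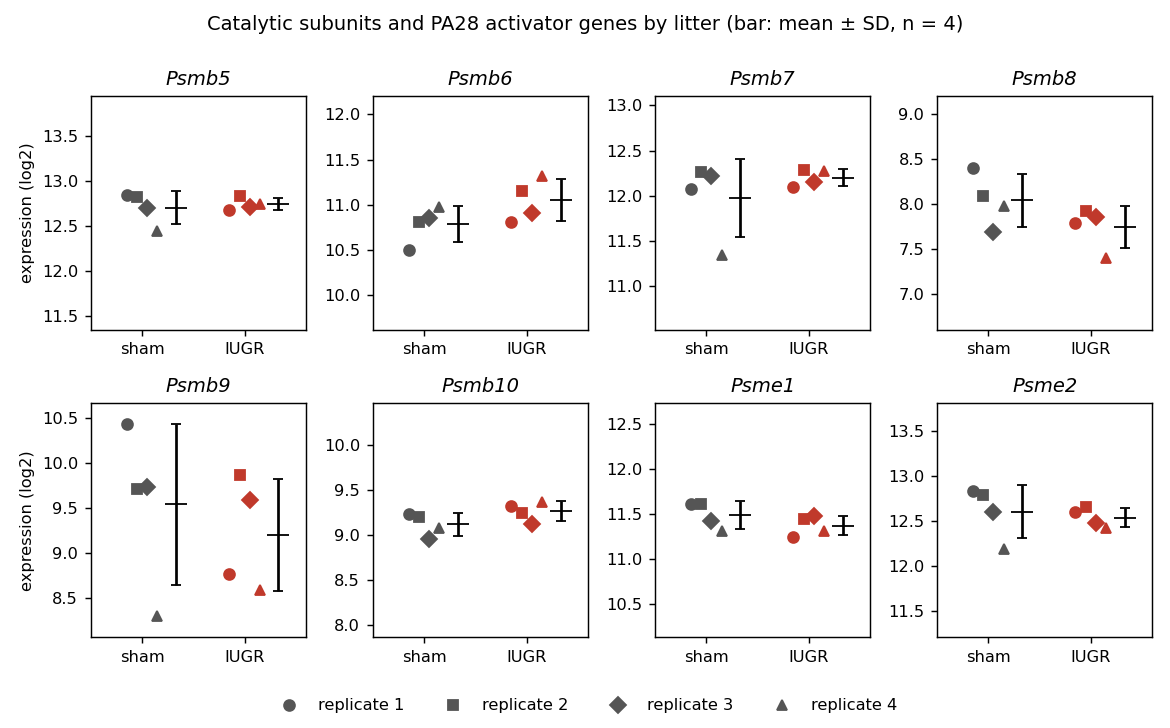
Log2 expression (y axis, of equal span in every panel) of the constitutive catalytic subunits, their inducible counterparts and the activator ring genes in the sham (grey) and IUGR (red) litters, with the symbol giving the replicate and the bar the mean ± SD (n = 4). Psmb9 spans 8.30 to 10.43, and in no panel are the groups separate.

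Whether inducible and constitutive partners shifted against each other was tested within arrays, as 3 differences of log2 values. Psmb8 minus Psmb5 was -4.67 ± 0.26 in the sham and -5.00 ± 0.23 in the IUGR litters (SD, n = 4 each), and the change of -0.33 had an exact two-sided permutation p of 0.114 (0.343 adjusted over the 3 pairs). Without sham replicate 3 this change was -0.45, with the groups then separate (exact permutation p = 0.0286, not adjusted). With any other litter left out the exact permutation p lay between 0.171 and 0.257. With array weights the change was 0.019. Psmb9 minus Psmb6 was -1.24 ± 1.08 and -1.84 ± 0.69, a change of -0.60 (exact permutation p = 0.343, 0.514 adjusted). That change was -1.08 without sham replicate 4 (exact permutation p = 0.0857), -0.21 without sham replicate 1 and -0.30 without IUGR replicate 4. Psmb10 minus Psmb7 was -2.85 ± 0.44 and -2.93 ± 0.12, a change of -0.083 (exact permutation p = 0.83, also after adjustment), which was 0.12 without sham replicate 4. With 70 arrangements of all 8 litters, 0.0286 was the smallest p possible. Fewer arrangements exist with 1 litter left out, but the smallest p possible in this permutation test was again 0.0286. Psmb8 minus Psmb5 without sham replicate 3 was at that minimum. The level of such a within-array difference also reflects the probes, so only its change between groups was read.

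Blood and immune marker means were lowest in IUGR replicates 1 and 4, where Psmb9 was also low. All 13 macrophage markers were lower in IUGR islets by a median of -0.56, and 0 passed. Their mean ranged from 10.26 to 10.99 in the sham and from 9.36 to 10.44 in the IUGR litters. Of 10 lymphocyte markers, 9 were lower, with a mean of 7.44 to 7.95 against 7.04 to 7.43. Of 8 erythroid markers, 7 were lower, with a mean of 11.40 to 12.26 against 10.68 to 11.94. The erythroid mean had its 3 lowest arrays in IUGR replicate 1 (10.68), IUGR replicate 4 (11.27) and sham replicate 4 (11.40). The same 3 were lowest for Psmb9, which read 8.30 in sham replicate 4. There the macrophage mean was 10.35 and the lymphocyte mean 7.44, neither among the 3 lowest arrays of its list. Among the other immunoproteasome genes, Psme1 had the same 3 lowest arrays (IUGR replicate 1 11.25, sham replicate 4 11.31, IUGR replicate 4 11.32). Psmb8 was lowest in IUGR replicate 4 (7.40), then in sham replicate 3 (7.68) and IUGR replicate 1 (7.79). Psme2 read 12.42 in IUGR replicate 4, but IUGR replicate 1 (12.60) was not among its 3 lowest arrays. Psmb10 went the other way, being highest in IUGR replicates 4 (9.37) and 1 (9.32). The part of these cells in the immunoproteasome values was not tested.

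In the RefSeq annotation, Psmb8 and Psmb9 neighbour the peptide transporter genes Tap2 and Tap1 on chromosome 20, among class II histocompatibility genes. Tap1, which lies between Psmb8 and Psmb9, had another order of litters. It read 8.81, 8.20, 8.45 and 8.50 in the sham litters and 8.49, 8.35, 8.78 and 8.42 in the IUGR litters, a difference of 0.022 ± 0.15 (SE, adjusted p = 0.937, limma). Irf1, an interferon-induced activator of these genes, differed by 0.30 ± 0.22 (SE, adjusted p = 0.400, limma). B2m, the light chain of class I molecules, differed by -0.18 ± 0.087 (SE, adjusted p = 0.219, limma), and its IUGR litters (12.94 to 13.11) lay below the sham litters (13.11 to 13.36), with the nearest values equal after rounding. Of 7 antigen processing and interferon genes measured, 0 passed, with a median of 0.022.

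Assembly chaperones had the highest median of the role groups. All 6 measured were higher, by a median of 0.32, and 5 of 6 were higher without sham replicate 4, by a median of 0.14. None passed. Psmd10 (gankyrin), which helps to build the base of the cap, had the highest difference of all members, 0.46 ± 0.22 (SE, adjusted p = 0.216, limma). It read 9.21, 9.02, 8.81 and 8.14 in the sham litters and 9.29, 9.35, 9.04 and 9.36 in the IUGR litters. Here 1 sham litter, replicate 1, reached into the IUGR range, and without sham replicate 4 the difference was 0.25 (adjusted p = 0.247, limma). Psmd9, another base chaperone, had the lowest difference, 0.022, with values of 10.73, 10.97, 10.72 and 10.28 against 10.67, 10.83, 10.35 and 10.93. Psmd5 differed by 0.36, and the core chaperones Psmg1, Psmg2 and Psmg4 by 0.091, 0.30 and 0.34. After quantile normalization 4 of the 6 were higher, with a median of 0.19.

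The remaining members did not pass. Psme3, a nuclear activator of the core, read 12.03, 12.06, 11.92 and 11.42 in the sham litters and 11.80, 12.04, 11.89 and 12.08 in the IUGR litters (0.092 ± 0.15, SE). Psme4, a large activator that caps the core without ubiquitin recognition, read 12.12, 11.83, 11.93 and 11.72 against 11.68, 12.01, 12.01 and 11.88 (-0.0024 ± 0.12, SE). Psmb11, the catalytic subunit of thymic cortical epithelium, read 6.18, 6.28, 6.23 and 6.33 in the sham litters and 6.23, 6.15, 6.11 and 6.24 in the IUGR litters (-0.075 ± 0.075, SE, adjusted p = 0.528, limma). The groups overlapped, and it was the only member of the 44 in which sham replicate 4 was the highest array. All its values lay below the medians of the arrays over all probe sets (7.70 to 7.81), so its order of litters is that of a dim gene. Of the 44 members, 7 had more than 1 probe set. The signs differed between probe sets for Psme2 (-0.064 and 0.014) and Psme3 (0.092 and -0.14).

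Genes that feed or control the proteasome were read from lists of 43 genes, of which 33 were measured. None passed, 24 were higher (55.1% of all genes), and their median was 0.091. At an unadjusted p under 0.05 (limma) the count was 5 of 33, against 26.1% of all genes. The groups did not overlap in 5 of 33, against 15.5% of all genes. After quantile normalization 17 of 33 were higher with a median of 0.016, after cyclic loess 17 with 0.001 and after median centring 9 with -0.14. Nfe2l1, the factor that raises proteasome genes when the complex is inhibited, differed by -0.039 ± 0.16 (SE, adjusted p = 0.892, limma). In contrast to core and cap genes it was highest in sham replicate 4 (10.72, against 9.97 to 10.30 in all other litters). Its relative Nfe2l2, the factor of the oxidative stress response, read 11.51, 11.28, 11.48 and 11.10 in the sham litters. In the IUGR litters it read 11.89, 11.90, 11.86 and 12.05, all above the sham litters, a difference of 0.58 ± 0.11 (SE, adjusted p = 0.0724, limma). Without sham replicate 1 it passed (0.64, adjusted p = 0.0125, limma), in a fit where 2738 genes passed.

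Nfyb, a subunit of the factor that binds CCAAT, differed by 0.53 ± 0.19 (SE, adjusted p = 0.145, limma) and Ngly1, which processes Nfe2l1, by 0.28. In the fit without sham replicate 1, 2738 of 14506 genes passed. Nfyb passed there at 0.67 (adjusted p = 0.0360, limma) and Ngly1 at 0.39 (adjusted p = 0.0492, limma). No named pathway gene passed with any other litter left out. The ubiquitin-activating enzymes Uba6 and Uba1 differed by 0.30 (adjusted p = 0.131, limma) and 0.14. Uba6 did not overlap between groups and passed without sham replicate 1 (0.37, adjusted p = 0.0204, limma). Zfand2a, a stress-induced proteasome-binding protein, differed by 0.52 ± 0.14 (SE, adjusted p = 0.117, limma) with no overlap, and passed at 0.60 without sham replicate 1 (adjusted p = 0.0322, limma). Pomp, which matures the core, differed by 0.12, Txnl1 by 0.26 and the ubiquitin receptor Adrm1 by 0.18. Among substrate carriers, Vcp differed by 0.091, Ubqln1 by 0.10 and Ddi1 by -0.25 (adjusted p = 0.142, limma). Ddi1 passed at -0.30 without sham replicate 1 (adjusted p = 0.0361, limma). It read only 5.84 to 6.30 (log2) over all litters, below the medians of the arrays over all probe sets (7.70 to 7.81). After quantile normalization its difference was -0.064 (adjusted p = 0.588, limma). Erap1, which trims peptides, differed by 0.26. With array weights, a setting in which 43.8% of all genes passed, 8 of the 17 named pathway genes did. They were Erap1 (0.61), Nfyb (0.50), Zfand2a (0.53), Ngly1 (0.48), Nfe2l2 (0.45), Irf1 (0.43), Uba6 (0.28) and Ddi1 (-0.26). The order of the IUGR litters seen in core and cap genes held in 6 of 8 proteasome-bound factors and 7 of 8 substrate carriers. It held in 2 of 8 regulators of proteasome genes, 0 of 2 ubiquitin-activating enzymes, 0 of 7 antigen processing genes and 19.6% of all genes.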

How the data were processed

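The deposited table holds log2 expression values, made by the authors with RMA per the submitters' processing notes (version not given in the sources used here), from RNA labelled with a whole-transcript kit per the labels' protocols. It has 29214 probe sets on 8 arrays. Platform annotation, updated through RefSeq gene identifiers (GRCr8), assigned a single gene to 15310 probe sets, more than 1 to 323 and no gene to 13581. The brightest probe set stood for each of 14506 genes. Values were not normalized further and no filter on low values was applied. IUGR minus sham was fitted in limma 3.58.1 (R 4.3.3, lmFit and eBayes, no covariate, 8.21 total degrees of freedom), two-sided, with Benjamini-Hochberg adjustment over all genes at 0.05.

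The members and gene lists were chosen with earlier results of these data known. Values per litter are given for the immunoproteasome genes, their counterparts and the highest and lowest difference of each role, with pathway genes by smallest p plus a fixed few. On simulated data with 200 of 14506 genes changed, the fit found 70% at a 2-fold and 94% at a 4-fold change, with 5.99% false calls. The simulated noise was drawn for each gene alone, without the litter orders that core and cap genes shared. No change under 2-fold was simulated. Alternatives were quantile normalization, cyclic loess, median centring, array weights, a trended robust prior, removal of the dimmest 30% of genes, the mean of probe sets, a replicate block and leaving out each litter. There is no sequencing depth here; precision depends on how many arrays there are. Figures used matplotlib 3.10.9.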

Additional observations from a re-analysis of the deposited data

Results flagged for a closer look

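In 11 members, the log2 value of sham replicate 4 lay far below the other sham litters, with a gap to the nearest litter that, as a share of the range of the sham group, exceeded Dixon's 95% critical value for 4 samples. The ratio of gap to range was Psma1 0.89, Psma4 0.882, Psma5 0.882, Psma6 0.863, Psmb4 0.854, Psmc1 0.893, Psmc3 0.936, Psmc4 0.918, Psmd3 0.973, Psmd7 0.885 and Psmd12 0.868. Among the pathway genes, Pomp in sham replicate 4 had a ratio of 0.889, also on the low side. Zfand2a in IUGR replicate 1 had a ratio of 0.831, on the high side. In all, 122 groups of 4 litters (61 genes in 2 groups) were examined, and chance alone marks about 1 in 20 independent groups, whereas these genes share arrays. The share of all genes that this rule marks in sham replicate 4 was not counted, so the flags cannot be called particular to these members. Over all genes, 38.3% had their lowest sham value in that litter. Without sham replicate 4, 0 of the 44 members passed (limma), and at an unadjusted p under 0.05 the count was also 0.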

How the results depend on the processing

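The number of members past the threshold was 0 of 44 in all settings run except array weights. That setting gave 5 (Psmb10, Psmd5, Psmd8, Psmd10 and Psmg4, each higher), where 6358 of all genes passed. Those weights ran from 0.20 in sham replicate 4 to 7.82 in sham replicate 3, and sham replicate 1 had 0.26. At an unadjusted p under 0.05 (limma) the member count lay between 0 and 4 in the other settings. The count over all genes, 36, was 0 after quantile normalization (3230 unadjusted), 0 after cyclic loess (3280), 1 after median centring and 59 without dim genes, and from 0 to 2738 with 1 litter left out. With the replicate number as a block it was 0 (2715 unadjusted, of which 1 was a member, Psmb6). No pairing by number was seen: deviations of same-numbered litters correlated from -0.43 to 0.10, and no sham litter correlated best with its own number. With 4 litters a group this cannot exclude a step shared by number, and the block is given here only. The medians of the core, cap and immunoproteasome groups, 0.07, 0.14 and -0.12, were -0.16, -0.089 and -0.35 after median centring, -0.011, 0.048 and -0.20 after quantile normalization, -0.0011, 0.032 and -0.22 after cyclic loess, and -0.0068, 0.036 and -0.048 with array weights. With 1 litter left out they lay between -0.049 and 0.16, -0.0089 and 0.20, and -0.20 and -0.039. With 1 litter left out, Psmb8 minus Psmb5 lay between -0.45 and -0.22, Psmb9 minus Psmb6 between -1.08 and -0.21 and Psmb10 minus Psmb7 between -0.22 and 0.12. With array weights they were 0.019, -0.49 and 0.24. Signs changed as follows in genes that had not passed, and the cause was not tested. After quantile normalization the differences were Psma2 -0.044, Psma5 -0.097, Psma6 -0.013, Psmb3 -0.055, Psmb5 -0.011, Psmc3 -0.020, Psmc4 -0.047, Psmc5 -0.040, Psmd1 -0.034, Psmd4 -0.003, Psmd7 -0.062, Psmd9 -0.088, Psmg1 -0.034, Psmb11 0.11 and Tap1 -0.068. After cyclic loess they were Psma2 -0.070, Psma5 -0.13, Psma6 -0.031, Psmb3 -0.063, Psmb5 -0.0011, Psmb10 -0.015, Psmc3 -0.048, Psmc4 -0.046, Psmc5 -0.064, Psmd1 -0.041, Psmd4 -0.019, Psmd7 -0.085, Psmd9 -0.12, Psmg1 -0.059, Psmb11 0.041 and Tap1 -0.090. After median centring they were Psma1 -0.071, Psma2 -0.18, Psma4 -0.023, Psma5 -0.20, Psma6 -0.16, Psmb3 -0.21, Psmb5 -0.19, Psmb7 -0.0026, Psmb10 -0.086, Psmc1 -0.069, Psmc3 -0.12, Psmc4 -0.20, Psmc5 -0.16, Psmc6 -0.088, Psmd1 -0.18, Psmd2 -0.089, Psmd3 -0.11, Psmd4 -0.085, Psmd6 -0.10, Psmd7 -0.20, Psmd11 -0.021, Psmd12 -0.019, Psmd13 -0.050, Psmd14 -0.12, Psmd9 -0.21, Psmg1 -0.14, Psme3 -0.14, Pomp -0.11, Tap1 -0.21, Uba1 -0.090, Adrm1 -0.053, Ubqln1 -0.13 and Vcp -0.14. With array weights they were Psma2 -0.017, Psma5 -0.19, Psma6 -0.077, Psmb3 -0.017, Psmb7 -0.0068, Psmb8 0.055, Psmc4 -0.071, Psmd1 -0.017, Psmd3 -0.035, Psmd6 -0.028, Psmd7 -0.049, Psmd13 -0.038, Psmd9 -0.093, Psme4 0.0089, Nfe2l1 0.19 and Pomp -0.032. With the mean of probe sets Psme3 was -0.024. With 1 litter left out the ranges were Psme2 -0.20 to 0.014, Psme4 -0.061 to 0.070, Psma7 -0.050 to 0.034, Tap1 -0.075 to 0.13, Psmg1 -0.075 to 0.20, Psma2 -0.13 to 0.16, Psma5 -0.14 to 0.098, Psma6 -0.092 to 0.15, Psmb3 -0.079 to 0.091, Psmb5 -0.049 to 0.085, Psmc4 -0.077 to 0.086, Psmc5 -0.091 to 0.21, Psmc6 -0.049 to 0.24, Psmd1 -0.054 to 0.12, Psmd3 -0.030 to 0.18, Psmd6 -0.087 to 0.23, Psmd7 -0.055 to 0.086, Psmd12 -0.0089 to 0.30, Psmd14 -0.093 to 0.21, Psmd9 -0.11 to 0.14, Psme3 -0.054 to 0.16, Nfe2l1 -0.13 to 0.12 and Pomp -0.018 to 0.25.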

Other observations

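A few genes carry symbols close to those of the subunits but fall outside the symbol rule. They were looked at after the values were seen. Psma3l, a Psma3-like gene, read 11.97, 11.81, 11.75 and 10.94 in the sham litters and 11.56, 11.86, 11.56 and 11.85 in the IUGR litters. Its low value in sham replicate 4 and the higher values in IUGR replicates 2 and 4 had the order of the core subunits, and its difference was 0.091 ± 0.22 (SE, adjusted p = 0.808, limma). Psmc3ip, a meiotic recombination factor and no proteasome subunit, read 8.20, 7.91, 7.77 and 6.85 against 7.55, 7.89, 7.64 and 8.10. It showed the same order of litters, so that order was not limited to the complex. Psme3ip1, which binds Psme3, read 10.86, 10.85, 10.74 and 9.97 against 10.73, 10.72, 10.78 and 10.57, low in sham replicate 4 but without the order of the IUGR litters.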
